A study of Homo sapiens with 5 samples.

Results

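The genes described here are 39 genes of the actin cytoskeleton in HCT116, a human colorectal carcinoma cell line of epithelial type. They were taken as a named list of actins, myosins, tropomyosins, calponins, actin-binding proteins and focal adhesion proteins typical of control by serum response factor (SRF) and its cofactors, the myocardin-related transcription factors (MRTF). All 39 were found by symbol among the 20030 rows of the expression files. RNA was sequenced from 2 control samples (pLKO_1 and pLKO_2) that carried the pLKO.1 vector and from 3 samples with stable knockdown of ELK4, an ETS factor that can bind DNA together with SRF. The titles of the knockdown samples (shELK4_1, shELK4_2 and shELK4_3) match the names of the 3 hairpins in the paper. Each sample was therefore read as a different hairpin, delivered by lentivirus and kept under puromycin selection, so that a hairpin was measured in 1 sample. Whether the 2 controls came from separate infections is not stated, and p-values then measure the spread between these samples, which may be partly technical. The levels are FPKM, fragment counts scaled to the length of the transcript and to the mapped reads of the sample, and can be compared between genes. Read counts are not in the files used here, and sequencing depth is therefore unknown.

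Actin monomers assemble into filaments, which cofilins and profilins turn over, tropomyosins and calponins coat, filamins and alpha-actinins crosslink, and non-muscle myosin pulls on. Free actin monomers hold MRTF in the cytoplasm. When they are used up in filaments, MRTF enters the nucleus and binds SRF at the CArG box, a DNA element found near many cytoskeletal genes, while ternary complex factors such as ELK4 contact SRF through an overlapping surface and recognise an ETS core next to it. Whether knockdown of ELK4 changes the contractile genes is the question that this comparison addresses.

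ELK4 itself had 8.62 and 7.60 FPKM in the controls against 3.14, 2.82 and 2.44 FPKM in shELK4_1, shELK4_2 and shELK4_3, so every hairpin sample lay below both controls. Among the epithelial markers, KRT8 had 1071 and 1072 FPKM in the controls. Of 10 smooth muscle and fibroblast markers, MYOCD, DCN, MYH11, LMOD1 and COL1A2 stayed at or near 0, and the summed FPKM of all 10 was 5.38 and 5.34 in the controls against 5.80 to 7.22 in the knockdown samples. The 3 endothelial markers summed to at most 0.0633 FPKM in any sample. Of the 3 leukocyte markers, CD3E was listed at 0 throughout, PTPRC was at or near 0, and CD68 made up nearly all of a sum of 5.23 to 14.1 FPKM. The summed FPKM of the 5 epithelial markers was 2615 and 2655 in the controls against 1989, 1476 and 1585 in the knockdown samples, and its part in the results below was not tested. The keratins KRT8, KRT18 and KRT19 made up most of this sum and lay below both controls with every hairpin. The adhesion genes EPCAM (156 and 157 FPKM in the controls against 166, 137 and 118) and CDH1 (20.5 and 20.3 against 23.1, 10.3 and 14.7) were above both controls with shELK4_1 and below them with the other hairpins. A lower FPKM is a smaller share of the RNA in a sample, and in bulk RNA fewer cells making a transcript and less transcript per cell cannot be told apart.

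Most of the cytoskeletal genes were lower after ELK4 knockdown by small amounts, and a few by more. The mean of log2(FPKM + 1) was lower in the knockdown samples for 29 of the 37 genes that could be tested (78.4%), against 51.8% of all 10780 tested genes. ACTG2, the enteric smooth muscle actin, and CNN1, the smooth muscle calponin, were below 1 FPKM in all 5 samples and were not tested, since a gene needed at least 1 FPKM in 2 samples. They had at most 0.0691 and 0.125 FPKM in any sample. The median log2 fold change of the 37 genes was -0.14, against -0.01 over all tested genes. Summed over the 39 genes, the FPKM was 6154 and 6474 in the controls against 5690, 5432 and 5592 in shELK4_1, shELK4_2 and shELK4_3, which was 1.95% and 2.02% of all FPKM in the controls against 1.72% to 1.84% in the knockdown samples, without overlap.

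No member reached an adjusted p under 0.05 in the linear model across all genes (limma with Benjamini-Hochberg adjustment), a limit that 0.167% of all tested genes passed, 0.0649% as lower genes and 0.121% with a fold of at least 2. The lowest adjusted p among them was 0.0527, for TPM2. The paper's own list of genes changed by the knockdown holds FLNC as lower, at an adjusted p under 0.05 from a test that it does not name. At an unadjusted p under 0.05 there were 11 members lower and 1 higher, where 8.14% of all tested genes were lower at that limit and 8.08% higher, so that the lower members made up 29.7% of the 37 and the higher one 2.70%. All 3 knockdown samples lay below both controls for 16 members (43.2%), against a background of 21.0%, and above both for 2 (5.41%), against 19.1%. These genes are more abundant than most, with a median of 37.0 FPKM in the controls against 8.46 over all tested genes. Among tested genes of at least 10 FPKM in the controls, 11.7% were lower at an unadjusted p under 0.05, and 10 of the 31 members in that range were. In the same range, 29.6% of tested genes had all 3 knockdown samples below both controls, more than the 21.0% of all tested genes. Of the 16 members with that pattern, all but FHL1 and TGFB1I1 were among the 31 in this range. The list was chosen with earlier results of these data known, so these shares describe it and do not test it.

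To sort the genes by hairpin, a gene was called lower with a hairpin when its level lay below both controls and at least 0.32 below their mean on the log2(FPKM + 1) scale, and higher by the mirror rule. By this description, 6 members were lower with all 3 hairpins (FLNC, TPM2, MYL9, PDLIM1, FHL2 and MYL6), 7 with exactly 2 (FLNA, MYH10, MYL12A, MYL12B, TAGLN, TGFB1I1 and WDR1) and 8 with exactly 1 (ACTB, CFL1, CFL2, FHL1, LIMA1, MYH9, TAGLN2 and TPM1). The shares were 16.2%, 18.9% and 21.6% of the 37, against backgrounds of 2.09%, 4.81% and 16.6% of all tested genes. Among tested genes of at least 10 FPKM in the controls, 2.71% were lower with all 3 hairpins, and 6 of the 31 members in that range were. Genes lower with all 3 or with 2 hairpins were thus a larger share of this list than of all genes, while the share lower with 1 hairpin was near the background. Because the list was chosen with earlier results of these data known, this is a description and not a test. The remaining 16 members were lower with none. Per hairpin, 15 members were lower with shELK4_1, 13 with shELK4_2 and 12 with shELK4_3, where the backgrounds were 8.65%, 14.4% and 9.48%. Higher by the same rule were PDLIM5 with all 3 hairpins, where the background was 2.30%, and CFL2 and LIMA1 with shELK4_2 only, 2 genes against a background of 13.0% for exactly 1 hairpin. None was higher with exactly 2, a pattern of 5.33% of all tested genes. Per hairpin, 1, 3 and 1 members were higher with shELK4_1, shELK4_2 and shELK4_3, where the backgrounds were 9.94%, 9.29% and 11.4%.

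**Figure D1:**
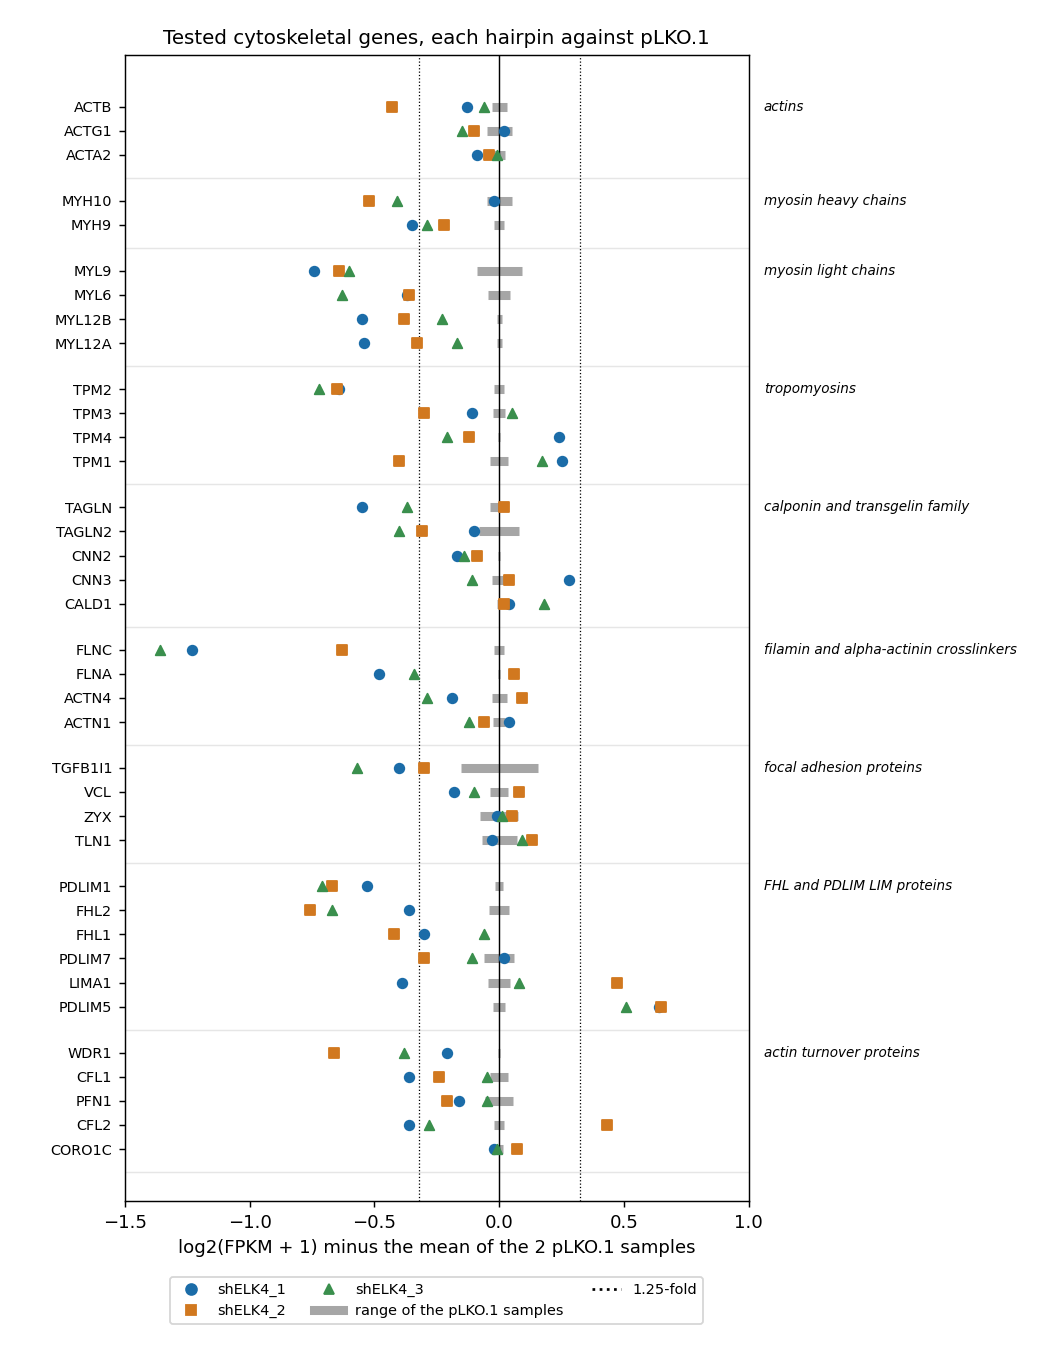
Difference in log2(FPKM + 1) between each hairpin sample and the mean of the 2 controls (horizontal axis) for the 37 tested genes, grouped by role, with shELK4_1 as circles, shELK4_2 as squares, shELK4_3 as triangles, the range of the controls as a grey bar and dotted lines at 0.32 to either side of the control mean. For FLNC, TPM2, MYL9, PDLIM1, FHL2 and MYL6 all 3 symbols lie left of the lower dotted line, for PDLIM5 all 3 lie right of the upper one, and for LIMA1 and CFL2 the circle and the square lie on opposite sides.

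The promoter stretches of 6 genes are shown as examples of the CArG box, the element that SRF binds, in genes from the largest to the smallest change among those that hold it. RefSeq promoter windows on GRCh38.p14, from 250 bases before to 50 after an annotated start, were found for 36 of the 39 genes (not for ACTB, MYL9 and TAGLN), with 75 windows in all. A CArG box on either strand was present in at least 1 window of 9 of the 36 genes (25%), against 1.6% of all 27305 genes with a window, or in 14.7% of their windows against 1.29% of all 35116. The list was drawn as genes typical of SRF control, so this contrast is partly built into the choice of genes. The 9 genes were ACTG1, ACTG2, ACTN1, CNN2, FHL1, FHL2, FLNA, TGFB1I1 and TPM4. Boxes in ACTG2, ACTN1 and FHL1 and at another start of FHL2 are not printed. The stretches of FHL2, TGFB1I1, ACTG1 and TPM4 lie at a start inside the annotated span of the gene. Those of FHL2, TGFB1I1 and FLNA overlap annotated exons. The stretches are written 5′ to 3′ on the strand of the gene, with the CArG box in capitals. The genome build behind the FPKM values is not given in the sources used here, and the coordinates are those of RefSeq.
FHL2 (chr2:105399091-105399120, minus strand): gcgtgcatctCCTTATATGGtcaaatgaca
TGFB1I1 (chr16:31473144-31473173, plus strand): tggaggggagCCAAATTTGGcttgggtgaa
FLNA (chrX:154374709-154374738, minus strand): ggcaattttaCCAATTAAGGctttctcgcc
CNN2 (chr19:1026509-1026538, plus strand): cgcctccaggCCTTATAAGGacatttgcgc
ACTG1 (chr17:81512874-81512903, minus strand): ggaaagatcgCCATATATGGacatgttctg
TPM4 (chr19:16067355-16067384, plus strand): aatcctaggtCCAAATAAGGcgagggctgc
The genes with these boxes did not share a size of change. Of the 8 that were tested, all 8 had a log2 fold change below 0, but it ranged from -0.59 for FHL2 to -0.03 for TPM4, with a median of -0.19. Only FHL2 and TGFB1I1 of these 8 had an unadjusted p under 0.05 (limma), and only FHL2 was lower with all 3 hairpins. Among the 26 tested members with windows but no CArG box in them, 18 were below 0, with a median of -0.13, and FLNC, TPM2, PDLIM1 and MYL6, which were lower with every hairpin, were among them. A match is a description of the letters in this window and was not tested as a binding site.

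The ETS core CCGGAA, searched on both strands, was found in the windows of 9 of the 36 genes (25%), against 20.1% of all genes, so the list was near the background. MYL12B is shown because 1 of its windows holds 3 copies close together, in the reverse orientation and in capitals. A window of WDR1 also holds 3 copies, further apart, at -233, -79 and 29 from the start, and is not printed.
MYL12B (chr18:3262055-3262132, plus strand): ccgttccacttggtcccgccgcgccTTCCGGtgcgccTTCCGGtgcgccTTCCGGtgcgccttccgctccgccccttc
The 9 tested members with this form had a median log2 fold change of -0.22 and the 25 without it -0.13, and none of the 9 was lower with all 3 hairpins.

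The cytoplasmic actins, which form the filaments of every cell, were the most abundant members and differed little between the groups. ACTG1 (gamma-actin) had 2200.4 and 2357 FPKM in the controls against 2315, 2122 and 2054 FPKM in the knockdown samples, and the groups overlapped. ACTB (beta-actin) had 1019.6 and 1061 FPKM in the controls against 953, 770.1 and 996 FPKM with shELK4_1, shELK4_2 and shELK4_3. All 3 hairpin values of ACTB lay below both controls, yet the limit of 0.32 was passed with shELK4_2 only, and the log2 fold change of -0.21 (SE, the standard error, 0.12, limma adjusted p = 0.444) was smaller than the gap between shELK4_2 and the other hairpins. ACTA2, the smooth muscle actin that also marks activated fibroblasts, had 1.92 to 2.17 FPKM over the 5 samples. Exons of FAS and an antisense RNA cover 36.2% of ACTA2 exons, so its reads could be split.

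The light chains of myosin II lay below both controls with every hairpin. MYL9, a regulatory light chain typical of smooth muscle and an SRF target, had 31.3 and 35.5 FPKM in the controls against 19.6, 21.1 and 21.6 FPKM in shELK4_1, shELK4_2 and shELK4_3. The hairpin values lay close together and far below both controls, with a mean of 20.8 ± 1.04 FPKM (SD, n = 3) against 33.4 ± 2.96 (SD, n = 2) and a log2 fold change of -0.66 (SE 0.098, limma adjusted p = 0.0729). MYL6, the essential light chain of non-muscle and smooth muscle myosin, had 429 and 456 FPKM in the controls against 342, 344 and 286 FPKM with the hairpins, a log2 fold change of -0.45 (SE 0.11, limma adjusted p = 0.138). Its value was lowest with shELK4_3. Exons of MYL6B and SMARCC2 cover 18.3% of its exonic bases, so its reads could be split.

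MYL12A and MYL12B, neighbouring genes for the regulatory light chains of non-muscle myosin, showed the same order of hairpins. MYL12A had 119 and 118 FPKM in the controls against 81.2, 94.2 and 105 FPKM in shELK4_1, shELK4_2 and shELK4_3. MYL12B had 245 and 249 FPKM in the controls against 169, 189.5 and 211 FPKM with the hairpins. For both genes shELK4_1 was lowest, shELK4_3 was nearest to the controls without reaching them, and the limit of 0.32 was passed with shELK4_1 and shELK4_2. They share 2.44% and 4.39% of their 50-base words with each other, so a small part of their reads could be exchanged. The log2 fold changes were -0.35 for MYL12A and -0.39 for MYL12B (adjusted p = 0.24 and 0.181 from limma). Summed over MYL9, MYL12A and MYL12B, the regulatory light chains had 396 and 403 FPKM in the controls against 269.5, 305 and 337.5 FPKM with the hairpins.

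Of the heavy chains of non-muscle myosin II, MYH9 (form IIA) had 55.8 and 57.6 FPKM in the controls against 44.3, 48.6 and 46.2 FPKM with the hairpins, below both controls in each case, with a log2 fold change of -0.29 (SE 0.086, limma unadjusted p = 0.0139 and adjusted p = 0.198). MYH10 (form IIB) had 8.78 and 8.15 FPKM in the controls against 8.32, 5.60 and 6.14 FPKM with shELK4_1, shELK4_2 and shELK4_3. MYH10 was thus between the controls with shELK4_1 and below them with the other hairpins.

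Among the tropomyosins, which lie along the actin filament and set which proteins bind it, TPM2 stood apart. TPM2 had 85.1 and 87.7 FPKM in the controls against 55.2, 54.6 and 52.2 FPKM in shELK4_1, shELK4_2 and shELK4_3. The hairpin samples were almost at the same level, 62.5% of the control mean, and the log2 fold change was -0.67 (SE 0.082, limma adjusted p = 0.0527). No exon of another gene overlaps TPM2 and it shares no 50-base word with another gene, so its reads could hardly be split. TPM4 had 64.3 and 64.6 FPKM in the controls against 76.2, 59.4 and 55.8 FPKM with the hairpins, above both controls with shELK4_1 and below them with the others. TPM3 had 20.8 to 26.6 FPKM over the 5 samples. TPM1 had 2.91 and 2.71 FPKM in the controls against 3.52, 1.88 and 3.27 FPKM with the hairpins, and was lower with shELK4_2 only. As a share of the summed FPKM of the 4 tropomyosins, TPM2 made up 47.9% and 48.4% in the controls against 34.8%, 40.0% and 37.9% in the knockdown samples, while TPM4 made up 36.2% and 35.6% in the controls against 40.5% to 48.0% in the knockdown samples, without overlap for either gene. Shares within a family depend on each other, so a lower share of TPM2 raises that of TPM4. The level of TPM4 itself had a log2 fold change of -0.03 (limma adjusted p = 0.944).

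**Figure D2:**
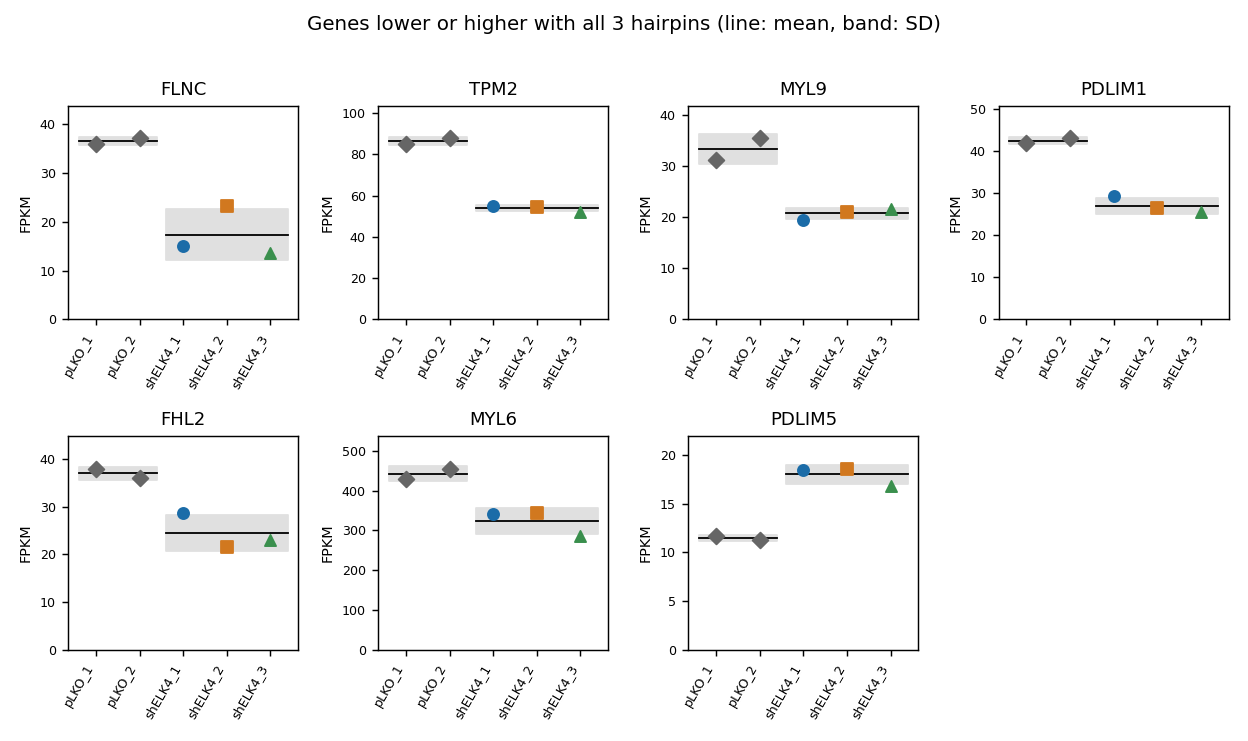
FPKM (vertical axis, linear from 0) in each of the 5 samples for the 6 genes lower and the 1 gene higher with all 3 hairpins, with the group mean as a line and its SD as a grey band (n = 2 controls, n = 3 hairpin samples). The TPM2 points of the hairpin samples sit between 52.2 and 55.2, below 85.1 and 87.7 in the controls. Relative to their mean, the hairpin samples of FLNC spread most among these genes, from 13.6 to 23.2.

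The lowest fold change of the list was that of FLNC, a muscle-type filamin that crosslinks actin filaments and ties them to the membrane. FLNC had 35.9 and 37.0 FPKM in the controls against 15, 23.2 and 13.6 FPKM in shELK4_1, shELK4_2 and shELK4_3. Its mean was 36.5 ± 0.806 FPKM (SD, n = 2) against 17.3 ± 5.18 (SD, n = 3), 47.3% of the control mean. The log2 fold change of -1.07 (SE 0.21, limma adjusted p = 0.104) ranked 22 from the lowest among the 10780 tested genes. Leaving out 1 sample at a time gave values between -1.29 and -0.93, with limma adjusted p of 0.846 without pLKO_1, 0.794 without pLKO_2, 0.172 without shELK4_1, 0.0134 without shELK4_2 and 0.149 without shELK4_3.
FLNA, the widely expressed filamin, had 100.2 and 99.1 FPKM in the controls against 71.2, 104.0 and 78.7 FPKM with the hairpins. FLNA was therefore lower with shELK4_1 and shELK4_3 but above both controls with shELK4_2, the same sample in which FLNC was highest among the hairpins. FLNC made up 26.4% and 27.2% of the summed FPKM of FLNA and FLNC in the controls against 17.4%, 18.2% and 14.7% in the knockdown samples, so its share was lower also with shELK4_2. The alpha-actinins, which crosslink filaments in bundles, overlapped between the groups. ACTN1 had 18.0 to 20.2 FPKM over the 5 samples. ACTN4 had 101 and 105 FPKM in the controls against 89.9, 109.6 and 83.6 FPKM with the hairpins, again highest with shELK4_2.

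**Figure D3:**
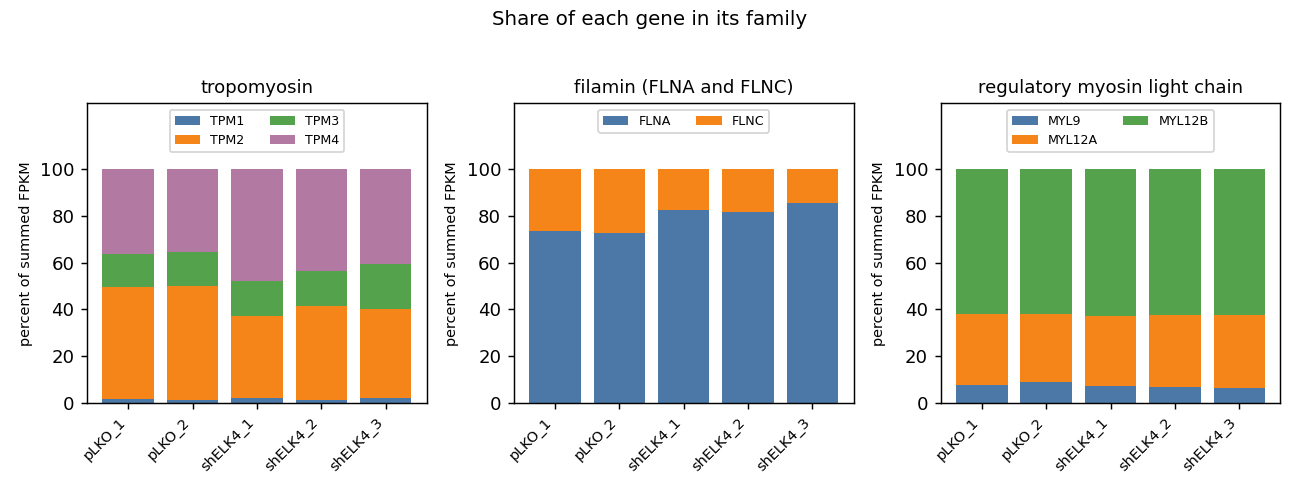
Share of each gene in the summed FPKM of its family (vertical axis, percent) in each of the 5 samples, for the tropomyosins, for FLNA and FLNC, and for the regulatory myosin light chains. TPM2 goes from 47.9% and 48.4% in the controls to between 34.8% and 40.0%, FLNC from 26.4% and 27.2% to between 14.7% and 18.2%, and MYL12B stays between 61.9% and 62.6% in all 5 samples.

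Of the LIM domain proteins, which bind filaments and adhesions, PDLIM1 and FHL2 were lower and PDLIM5 was higher with every hairpin. PDLIM1, a PDZ and LIM protein that binds alpha-actinin, had 42.1 and 43.1 FPKM in the controls against 29.3, 26.5 and 25.7 FPKM in shELK4_1, shELK4_2 and shELK4_3. The hairpin values lay far below both controls, with a log2 fold change of -0.63 (SE 0.094, limma adjusted p = 0.0729). FHL2, an SRF target that also binds SRF as a cofactor, had 38 and 36 FPKM in the controls against 28.7, 21.5 and 22.9 FPKM with the hairpins, lowest with shELK4_2. Its log2 fold change was -0.59 (SE 0.13, limma adjusted p = 0.132). PDLIM5, a relative of PDLIM1 that likewise binds alpha-actinin, had 11.7 and 11.3 FPKM in the controls against 18.5, 18.6 and 16.8 FPKM with the hairpins, 156% of the control mean. The log2 fold change of PDLIM5 was 0.60 (SE 0.092, limma adjusted p = 0.0743), opposite in sign to that of PDLIM1 and close to it in size.
FHL1 had 3.68 FPKM in both controls and 2.81, 2.51 and 3.48 FPKM with the hairpins, below both controls each time but past the limit of 0.32 with shELK4_2 only. PDLIM7 had 24.4 to 31.7 FPKM over the 5 samples with overlapping groups. LIMA1 (EPLIN), which stabilises filaments at cell junctions, had 34.2 and 36.4 FPKM in the controls against 26.6, 49.1 and 37.5 FPKM with shELK4_1, shELK4_2 and shELK4_3. LIMA1 thus lay below both controls with shELK4_1 and above both with the other hairpins.

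TAGLN (SM22), a smooth muscle actin-binding protein and a classical SRF target, was low in HCT116, with 1.16 and 1.27 FPKM in the controls. It had 0.509 FPKM with shELK4_1 and 0.709 with shELK4_3, both lower by the rule above, and lay between the controls with shELK4_2. Both lower values are under 1 FPKM, and TAGLN passed the filter only through the controls and shELK4_2, where it was higher. Exons of other genes, PCSK7 among them, cover 47.8% of its exonic bases, and 36.2% of its 50-base words are shared, so its value is uncertain. TAGLN2, the form of epithelial and blood cells, had 70.8 and 79.4 FPKM in the controls against 70.1, 60.5 and 56.7 FPKM with the hairpins, past the limit with shELK4_3 only. CNN2, the calponin of non-muscle cells, had 91.1 and 91.7 FPKM in the controls against 81.3, 85.9 and 82.8 FPKM with the hairpins, a small difference of -0.13 on the log2 scale (adjusted p = 0.448 from limma) with all hairpins below both controls. CNN3 had 21.4 to 28.3 FPKM and CALD1, which binds tropomyosin on the filament, 10.9 to 12.6 FPKM over the 5 samples, and CALD1 was slightly above both controls with every hairpin.

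The focal adhesion genes that link integrins to actin differed little. VCL (vinculin, a frequently used SRF target) had 39.2 and 37.4 FPKM in the controls against 33.7, 40.7 and 35.6 FPKM with the hairpins. ZYX (zyxin) ranged from 54.3 to 60.5 FPKM and TLN1 (talin) from 18.8 to 21.8 FPKM, and their hairpin values overlapped the controls. TGFB1I1 (HIC5), an adhesion protein of contractile cells, had 3.23 and 4.25 FPKM in the controls against 2.56, 2.83 and 2.18 FPKM in shELK4_1, shELK4_2 and shELK4_3. All 3 hairpin values of TGFB1I1 were below both controls (log2 fold change -0.42, SE 0.14, limma adjusted p = 0.212), and the controls themselves differed by 0.31 on the log2 scale.

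Among the genes for actin turnover, WDR1 (AIP1), which helps cofilin to take filaments apart, had 81.5 and 81.9 FPKM in the controls against 70.3, 51.4 and 62.4 FPKM in shELK4_1, shELK4_2 and shELK4_3, with a log2 fold change of -0.42 (SE 0.14, limma adjusted p = 0.221). All 3 values lay below both controls, and shELK4_2 was lowest. CFL1 (cofilin-1) had 660.4 and 695 FPKM in the controls against 528, 574 and 654 FPKM with the hairpins, past the limit with shELK4_1 only. Its order of hairpins was that of MYL12A and MYL12B, and exons of MUS81 and SNX32 cover 19.0% of its exonic bases. CFL2 (cofilin-2, the muscle form) had 21.8 and 21.3 FPKM in the controls against 16.5, 29.4 and 17.6 FPKM with the hairpins, so it lay below both controls with shELK4_1 and shELK4_3 and above both with shELK4_2. PFN1 (profilin-1) had 311 to 374 FPKM and CORO1C (coronin) 25.1 to 26.8 FPKM over the 5 samples, both with overlapping groups.

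The spread between hairpins was unequal among the members. Relative to the control mean, LIMA1 differed by -0.39, 0.47 and 0.08 and CFL2 by -0.36, 0.43 and -0.28 on the log2(FPKM + 1) scale with shELK4_1, shELK4_2 and shELK4_3. CFL2 and LIMA1 were thus lower with 1 hairpin by the rule above and higher with another, 2 of 37 members (5.41%) against 1.56% of all tested genes. FLNC differed by -1.23, -0.63 and -1.36. These 3 genes and FLNA were higher with shELK4_2 than with shELK4_1 or shELK4_3. TPM2, at the other end, differed by -0.64, -0.65 and -0.72 and MYL9 by -0.74, -0.64 and -0.60. With 1 sample for each hairpin, differences between hairpins could not be set against replicates of a hairpin. A limma fit with a group for each hairpin takes its spread from the 2 controls alone, and in it 21 members (56.8%) and 41.5% of all tested genes differed among hairpins at an adjusted p under 0.05, so it compares libraries and no gene is called from it.

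**Figure D4:**
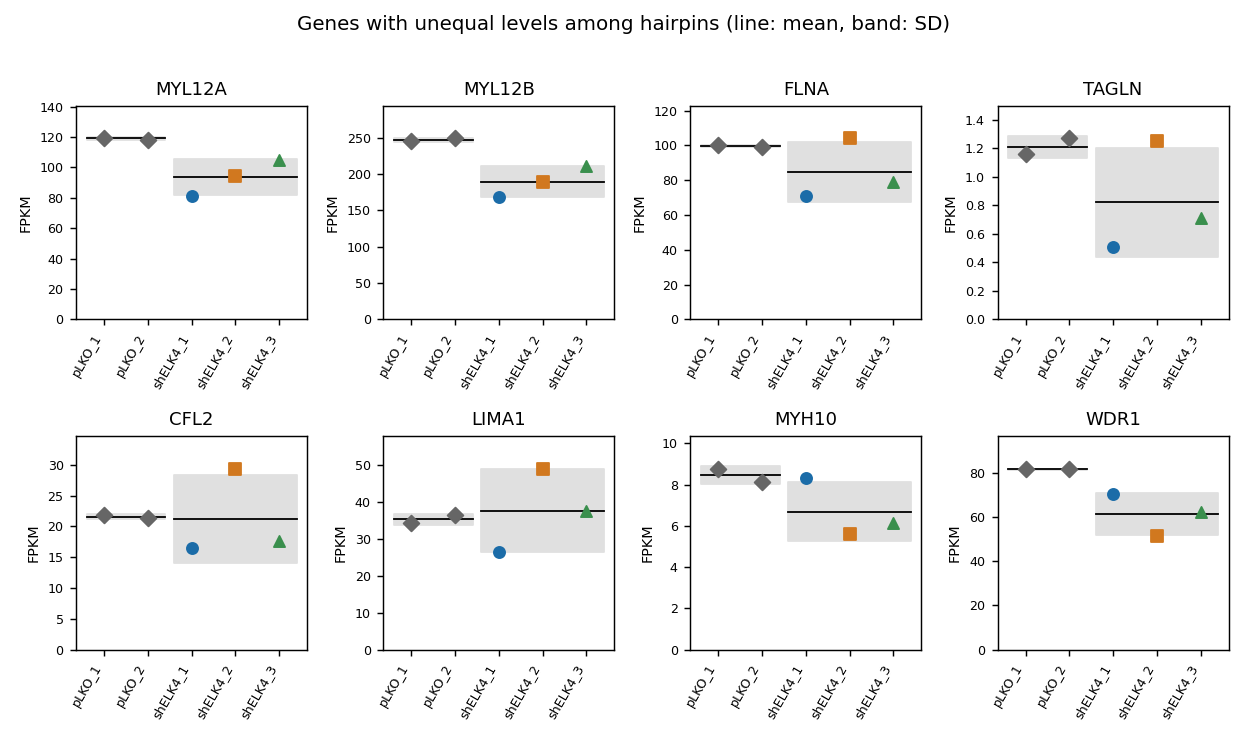
FPKM (vertical axis, linear from 0) in each of the 5 samples for 8 genes with unequal levels among hairpins, chosen after their values were seen, with the group mean as a line and its SD as a grey band (n = 2 controls, n = 3 hairpin samples). FLNA, TAGLN, CFL2 and LIMA1 are highest among the hairpins with shELK4_2, MYL12A and MYL12B are lowest with shELK4_1, and MYH10 and WDR1 are lowest with shELK4_2.

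Other genes that regulate or partner actin were read from lists by group. At an unadjusted p under 0.05 in limma, 2 of 9 tested genes of the Arp2/3 complex were lower, 2 of 19 other actin-binding genes were lower and 2 higher, and 2 of 13 other focal adhesion genes were lower, where 8.14% of all tested genes were lower and 8.08% higher. On lists this small, a count of 2 is not read as a result about the list. Of these genes and the SRF cofactors, ELK4 itself was the only one with an adjusted p under 0.05. The lowest p after that of ELK4 were those of FSCN1 and PARVA. SRF, the MRTF cofactors, ELK1 and ELK3 are given beside them, chosen after their values were seen. FSCN1 (fascin, which bundles filaments in protrusions) had 108 and 110.1 FPKM in the controls against 203, 186 and 162 FPKM with the hairpins, above both controls each time (log2 fold change 0.74, adjusted p = 0.0743 from limma). PARVA (parvin, a partner of integrin-linked kinase) had 5.01 and 4.74 FPKM in the controls against 2.34, 2.79 and 2.90 FPKM with the hairpins (log2 fold change -0.68, adjusted p = 0.0743 from limma).
Of SRF and its cofactors, SRF had 16.0 and 16.8 FPKM in the controls against 15, 17.1 and 15.8 FPKM with the hairpins, and MRTFA (listed as MKL1) and MRTFB (listed as MKL2) had log2 fold changes of -0.07 and 0.11 (adjusted p = 0.779 and 0.604 from limma). ELK3, another ternary complex factor, had 27.8 and 28 FPKM in the controls against 26.7, 8.57 and 20.1 FPKM with shELK4_1, shELK4_2 and shELK4_3, lowest by far with shELK4_2. ELK1, also of this kind, had 18.7 and 18.9 FPKM in the controls against 16.8, 21 and 23.7 FPKM in the same order. ELK1 thus lay below both controls with shELK4_1 and above both with the other hairpins (log2 fold change 0.11, adjusted p = 0.752 from limma).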

How the data were processed

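RNA of 5 HCT116 samples was sequenced by the authors on an Illumina HiSeq instrument. The authors deposited 1 FPKM value per gene and sample, computed with Cufflinks relative to the reads mapped in that sample. The submitters' processing notes name Trimmomatic 0.36, HISAT2 2.0.5, Cufflinks 2.2.1 and HTSeq 0.9.1. The genome build, the annotation and the strandedness of the RNA-seq are not given in the sources used here, so overlapping genes are uncertain.

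Samples were grouped by title. Of 20030 rows, 4 with repeated names were dropped. Genes with at least 1 FPKM in at least 2 samples (10780) entered limma 3.58.1 (R 4.3.3) as log2(FPKM + 1), with knockdown against vector as its single term, a trended variance prior and Benjamini-Hochberg adjustment over all of them. On this scale the change of low genes is understated. Low values did not fall on common steps across samples, so depth was not recovered and precision rests on the spread between samples. The fits were tested on simulated data. The members and lists were chosen with earlier results of these data known, and 1 list of other genes is not reported here. Values per sample are given for members with an unadjusted p under 0.05 or lower or higher with all 3 or exactly 1 hairpin, and for further members chosen after their values were seen, mainly those lower with 2 hairpins. Exon overlaps and shared 50-base words come from GENCODE release 44 on GRCh38, and promoters from RefSeq. Alternatives were a pseudocount of 0.1, no filter, median-of-ratios scaling, a block for the replicate number, leaving out 1 sample at a time, a weight for each group, and hairpin limits of 1.5-fold and 1-fold.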

Additional observations from a re-analysis of the deposited data

How the results depend on the processing

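The number of members lower at an unadjusted p under 0.05 (11) was between 5 (without the control pLKO_2) and 15 (without shELK4_2) with each sample left out, and 7 without pLKO_1. The number at an adjusted p under 0.05 (limma) was 0, was 0 to 2 with each sample left out (TPM2 and FLNC without shELK4_2) and was 7 with a weight for each group (MYL6, MYL9, TPM2, FLNC, FHL2, PDLIM1 and PDLIM5). In that fit 413 genes passed in all, against 18. The median log2 fold change of -0.14 was -0.2 with the replicate number as a block and -0.2 to -0.13 with each sample left out. No control has the number of shELK4_3, so the block takes that sample out of the comparison. Its fold changes are those found without shELK4_3 and are not a separate check. The count lower with all 3 hairpins (6) was 3 at 1.5-fold, 16 for any value below both controls and 5 to 9 with each sample left out, and the count lower with exactly 1 hairpin (8) was 2, 4 and 7 to 12. Where a hairpin was left out, these counts refer to the remaining hairpins. The cause of these shifts was not tested.

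Of 370 values for single members under the alternatives, 18 changed sign, all for genes whose change was between -0.07 and 0.07. With the block, and equally without shELK4_3, these were TPM1 (-0.08), TPM4 (0.06) and CFL2 (0.04). With a pseudocount of 0.1 it was TPM1 (-0.01). With each sample left out, the ranges were -0.12 to 0.21 for TPM1, -0.16 to 0.06 for TPM4, -0.32 to 0.08 for CFL2, -0.06 to 0.09 for ZYX, -0.02 to 0.03 for CORO1C, -0.01 to 0.13 for TLN1, -0.04 to 0.16 for CNN3 and -0.16 to 0.27 for LIMA1. The numbers in the labels were not taken to pair samples, since in the knockdown they match the names of the hairpins in the paper. Same-numbered deviations correlated at 0.0776 and 0.0225 and crossed ones at -0.0225 and -0.0776. With 2 controls the crossed values mirror the others, so they do not decide whether samples were paired. With the replicate number as a block, 13 members were lower and 1 higher at an unadjusted p under 0.05 (limma), in a fit whose fold changes do not use shELK4_3.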
